A study of Mus musculus with 3 samples.

Results

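Thra and Thrb are the genes that encode the thyroid hormone receptors, and their own TRα1 binding sites are described here. A site was counted for a gene when its summit lay inside the gene body of the GENCODE annotation of GRCm38 or within 30 kb of the 5′ end of the gene. This rule found 8 sites at Thra and 11 sites at Thrb, that is, 19 of the 23988 sites of the series. The sites came from ChIP-seq, in which DNA crosslinked to a protein is precipitated and sequenced, on the striatum of 8-week-old male C57BL/6J mice without treatment, hence euthyroid. All libraries, the input included, came from mice that carried a GS-tagged TRα1, made from a floxed construct and labelled as present in GABAergic neurons, so there was no group without the tagged receptor. The label gives the age as 8, and the study states it in weeks. The Cre driver was not given in the sources used here. The series held 2 ChIP libraries and 1 input library, and its peak list gave a single value per site and none per library. No replicate error or test could therefore be had, and library depth is not analysed here. The tissue was dissected pieces of striatum, which hold other cells too, and a peak list holds no expression with which the labelled cell type could be checked.

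Thra encodes TRα1, the main receptor of the brain, and by alternative splicing TRα2, which does not bind T3. Thrb encodes TRβ1 and TRβ2 from separate promoters. The receptors are nuclear receptors that bind DNA mostly as heterodimers with RXR, on direct repeats of the half-site AGGTCA separated by 4 bp (DR4), and that activate transcription when T3 is bound. A DR4 match (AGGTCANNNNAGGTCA, where N is any base) was called here on either strand if 2 or fewer of its 12 half-site bases were mismatched.

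The sequences of 5 sites of Thrb are given first, since they carry DR4 matches near their summits. Each is read from the plus strand of the RefSeq copy of GRCm38, which is the coding strand of both genes, with the half-sites of the match in capitals. The sites are numbered from 5′ to 3′ along each gene.
Thrb site 3, chr14:17674536-17674621: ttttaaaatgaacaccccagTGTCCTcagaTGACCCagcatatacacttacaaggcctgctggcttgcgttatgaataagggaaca
Thrb site 4, chr14:17701141-17701196: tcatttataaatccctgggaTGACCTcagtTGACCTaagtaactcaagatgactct
Thrb site 5, chr14:17757693-17757779: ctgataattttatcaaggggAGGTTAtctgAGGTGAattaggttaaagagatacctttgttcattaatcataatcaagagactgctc
Thrb site 7, chr14:17913424-17913486: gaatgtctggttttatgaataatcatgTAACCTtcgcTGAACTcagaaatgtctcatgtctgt
Thrb site 10, chr14:18022573-18022694: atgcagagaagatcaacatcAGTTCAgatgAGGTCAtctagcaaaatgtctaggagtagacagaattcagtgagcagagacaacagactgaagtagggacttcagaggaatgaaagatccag

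A DR4 match was present within 100 bp of the summit in 5 of the 11 sites at Thrb, and the share over all sites was 13.1%. At Thra, 0 of the 8 summits had one. Over the whole peak the counts were 5 of 11 at Thrb and 1 of 8 at Thra, against 17.3% of all sites. The match of Thrb site 4 had no mismatch, and its centre lay at +1 bp from the summit. It was read on the minus strand, as were those of sites 3 and 7. The match of Thrb site 10 had 1 mismatch and its centre lay at -74 bp, that is, on the 5′ side of the summit. The matches of sites 3, 5 and 7 had 2 mismatches each and lay at -38, -39 and +14 bp. Site 3 held another match with 2 mismatches, at -276 bp. With at most 1 mismatch, sites 4 and 10 were left, and the share over all sites was 3.86%.

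The last bases of the DR4 spacer, read in the direction of the repeat, were TG in sites 3, 4, 5 and 10 of Thrb. This made 4 of the 7 DR4 matches found in the 19 sites. Among the 5291 DR4 matches in all sites, 21.9% had a spacer ending in TG, and among 27276 matches outside sites on chromosomes 11 and 14 the share was 6.99%. The spacer was examined after its letters were seen, so these shares only describe the matches.

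Thrb (ENSMUSG00000021779.17) lies at chr14:17660261-18038090 on the plus strand and spans 377830 bp. Of its 11 sites, 9 lay in the gene and all of these were in introns of Thrb-201, a transcript that encodes TRβ1. The other 2 lay upstream, near the limit of 30 kb. The density in the gene body was 2.38 sites per 100 kb. The number of sites placed Thrb at rank 115 of 21938 protein-coding genes, among which 57.7% had at least 1 site. The length of Thrb exceeded that of 98.2% of them, and a longer gene has more room for sites.

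The strongest site of Thrb was site 2 at chr14:17632865-17633436, with its summit at -27143 bp relative to the 5′ end. Its pileup, the number of ChIP fragments over the summit, was 102. Its fold enrichment over the local background was 38.3, which put it at rank 471 of the 23988 sites. The fewest mismatches to DR4 in this peak were 3, so it had no match. Its GC content of 61.4% set it apart from the other 10 sites of the gene, which lay between 35.7 and 45.3%. It had 3.15 CpG per 100 bp, against at most 1.16 in the others. Within 100 bp of the summit there were a GC box (GGGCGG), an E-box (CAGCTG) and an NFI half-site (TTGGCA), present in 18.2, 12.8 and 9.95% of all sites. The bases on either side of its summit, which is the middle base, are shown because this peak stood highest at Thrb without a DR4. They hold no exact AGGTCA half-site, so there are no capitals.
Thrb site 2, chr14:17633058-17633178: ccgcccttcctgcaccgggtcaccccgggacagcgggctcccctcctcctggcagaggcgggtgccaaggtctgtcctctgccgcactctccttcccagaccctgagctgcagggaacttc

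The neighbouring site 1 at chr14:17631938-17632300 was lower, with 24 fragments at the summit (fold enrichment 9.25), 1019 bp from site 2. Both were intergenic. The next site farther upstream, outside the rule, lay at -37017 bp from the 5′ end and had a fold enrichment of 5.77.

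Intron 1 of Thrb-201 held sites 3, 4 and 5, and all of them had a DR4 at the summit. Site 3 at chr14:17674265-17674843 lay 14340 bp from the 5′ end, with 27 fragments at the summit (fold enrichment 10.4). Site 4 at chr14:17700978-17701331, which held the perfect DR4, lay 40906 bp from the 5′ end. Its pileup was 22 and its fold enrichment 8.55, higher than in 60.9% of all sites. Site 5 at chr14:17757583-17757966 lay at 97498 bp and had 19 fragments at the summit (fold enrichment 7.44). The perfect element was thus not at the strongest site of the gene.

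A stretch of 147929 bp without a site followed, the longest at Thrb. Intron 2 then held sites 6, 7 and 8. Site 6 at chr14:17905475-17906162 had a fold enrichment of 11.3 and no DR4. Site 7 at chr14:17913073-17914123 was the longest site of Thrb, with 1051 bp, and the weakest by fold enrichment, with 5.53 at a pileup of 22. Its local background was 3.16 fragments, the highest of the 19 sites. Site 8 at chr14:17923436-17924021 had a fold enrichment of 5.95 and no DR4, though an exact half-site lay at -82 bp from the summit.

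The 3′ part of Thrb held the last 3 sites. Site 9 at chr14:17990709-17991248 lay in intron 4, 9354 bp after the start of Thrb-202, a shorter transcript with a first exon of its own. Its pileup was 23 and its fold enrichment 8.93, without a DR4. Site 10 at chr14:18022255-18023078 lay in intron 7 and was the second strongest site of the gene, with 40 fragments at the summit (fold enrichment 15.2). Its summit was 765 bp from the 5′ end of Gm48321, an antisense transcript of Thrb on the minus strand. Counting the second half-site of its DR4, this peak held 3 exact half-sites, more than any other of the 19. Site 11 at chr14:18030490-18030834 lay in intron 9, with 14 fragments at the summit (fold enrichment 5.58).

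**Figure D1:**
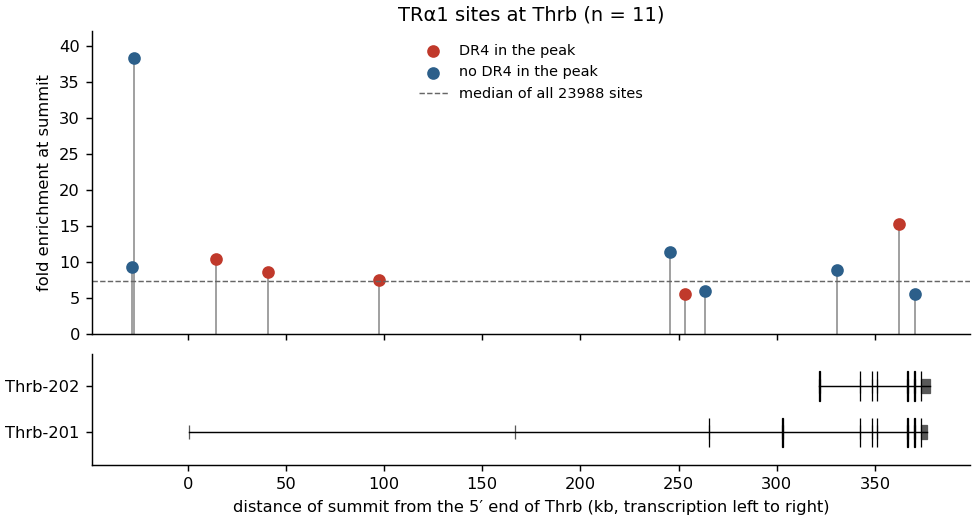
Fold enrichment at the summit (vertical axis) of the 11 TRα1 sites at Thrb against the distance from its 5′ end in kb, with red points for sites with a DR4 in the peak and a dashed line at the median of all sites, 7.40. The transcripts Thrb-201 and Thrb-202 are drawn below, with coding exons as tall boxes widened slightly to be visible. The upstream site at -27143 bp reaches 38.3, while the 5 sites with a DR4 lie between 5.53 and 15.2.

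Thra (ENSMUSG00000058756.13) lies at chr11:98740638-98769006 on the plus strand, spans 28369 bp and had 8 sites, all in the gene body. This is 28.2 sites per 100 kb, a density above that of 98.5% of protein-coding genes. The number of sites placed it at rank 265 of 21938. These values count the sites over coding exons, where the tagged construct and the endogenous gene cannot be told apart. The sites fell into 3 groups along the gene, namely introns of its 5′ part, coding exons, and the 3′ end that faces Nr1d1.

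In the 5′ part, site 1 at chr11:98746401-98747089 lay in intron 1 of Thra-202, the transcript that encodes TRα1, 5993 bp from the 5′ end of the gene. It had 52 fragments at the summit (fold enrichment 19.6), behind sites 6 and 7 of the gene. This was the peak of Thra with a DR4, whose half-sites carried 2 mismatches. The match was centred at -99 bp from the summit and reached beyond 100 bp from it. Site 2 at chr11:98750279-98753482, also in intron 1, spanned 3204 bp and was longer than 99.97% of all sites. Its summit, with 33 fragments (fold enrichment 12.6), lay in the intron, and its 3′ end covered 193 of the 349 bases of exon 2. Site 3 at chr11:98754755-98755263 lay in intron 2, with 32 fragments at the summit (fold enrichment 12.3).

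Site 3 had no DR4 but held an everted repeat with 6 bp between the half-sites (ER6), with 1 mismatch and its centre 5 bp from the summit. ER6 has been studied in vitro as another arrangement of the half-site for TR. The study found DR4 alone enriched and raised some doubts about the relevance of other arrangements for activation by T3. Under the same limit, 1.33% of all sites had an ER6 within 100 bp of the summit. The same bases also matched DR0 and DR2 with 2 mismatches. Both windows are shown for comparison with Thrb, with the DR4 half-sites of site 1 and the exact half-site of site 3 in capitals.
Thra site 1, chr11:98746505-98746651: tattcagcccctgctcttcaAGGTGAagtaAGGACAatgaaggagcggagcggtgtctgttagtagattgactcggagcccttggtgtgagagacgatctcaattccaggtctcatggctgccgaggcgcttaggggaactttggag
Thra site 3, chr11:98754977-98755097: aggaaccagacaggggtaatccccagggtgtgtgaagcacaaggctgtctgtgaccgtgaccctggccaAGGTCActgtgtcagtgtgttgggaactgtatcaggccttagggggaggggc

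The second group comprised sites 4 to 7, whose summits lay in coding exons 5, 6, 8 and 9 of Thra-202. They were 4 of the 8 summits of Thra, or 50.0%, while 3.55% of all 23988 summits lay in a coding exon. By length, coding exons of Thra-202 took 4.34% of the gene. Site 4 at chr11:98760737-98761112 had 25 fragments at the summit (fold enrichment 9.67). Site 5 at chr11:98761700-98762005 was the weakest of Thra, with 17 fragments at the summit (fold enrichment 6.69). Both sites nearer the 3′ end of the coding sequence were higher. Site 6 at chr11:98762938-98763941 had 71 fragments at the summit (fold enrichment 26.8). Site 7 at chr11:98764137-98764783 had 101 fragments at the summit (fold enrichment 37.7), at rank 491 of all sites. Exon 9 holds the last coding bases of TRα1.

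Each of the 4 peaks spanned the whole exon that held its summit, as did 61.9% of the 852 peaks with a coding-exon summit in the series. The peak over exon 5 began at -139 bp from its start and ended at +89 bp from its end, and for exon 6 these values were -21 and +79 bp. Site 6 began at -591 bp from the start of exon 8, ended at +154 bp from its end, and covered the intron before it and 88.4% of exon 7. The peak over exon 9 began at -141 bp and ended 258 bp beyond the last coding base. The summits lay at -9, +17, -87 and -26 bp from the centres of exons 5, 6, 8 and 9. Of the 8 coding exons of Thra-202, the 5 from exon 5 to exon 9, with 147 to 259 coding bases, were touched by a site. The other 3, with 53, 68 and 101 coding bases, were not. The 4 summits lay 7354 to 10789 bp from the nearest transcript start of Thra. Over the series, 35.3% of the coding-exon summits lay over 1 kb from every start of a protein-coding transcript.

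**Figure D2:**
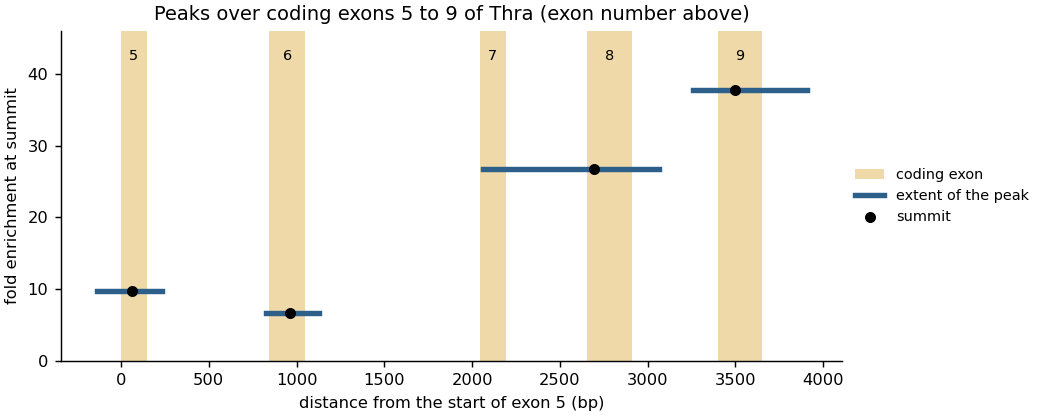
Extent (blue bars) and summit (black points) of the 4 peaks over the coding exons 5 to 9 of Thra (shaded, exon number above), with the distance from the start of exon 5 in bp on the horizontal axis and the fold enrichment on the vertical axis. All 4 summits fall within an exon, and the highest, 37.7, is that over exon 9.

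The construct of the tagged receptor encodes TRα1, and a fragment of its coding sequence would align to the same exons as one of the endogenous gene. Whether the construct holds a cDNA, without introns, is not given in the sources used here. The construct and the endogenous gene cannot be told apart at sites 4 to 7. The local background that follows from pileup and fold enrichment was at its floor of 1.69 fragments at sites 4, 5 and 6 and just above it at site 7. The floor was reached in 5 of the 8 sites of Thra and 8 of the 11 of Thrb, against 42.3% of all sites. The part of the construct in the ChIP signal of these 4 sites was not tested.

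At least 4 summits in coding exons were found in 2 genes, Thra and Speg, or 0.00912% of protein-coding genes. Speg, which encodes a muscle kinase, is longer, with 57024 bp. Its 4 summits lay in 3 coding exons with fold enrichments of 5.58 to 9.85. Sites 6 and 7 of Thra were above this range, while sites 4 and 5, with 9.67 and 6.69, lay within it. At least 2 such summits were found in 32 genes and at least 3 in 4 genes. At Thrb the count was 0, and none of the 8 coding exons of Thrb-201 was touched by a site.

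Coding exons 4 to 8 of Thra and 5 to 9 of Thrb are of equal length in pairs, which allows a base-by-base comparison. The identity was 83.2% for exon 4 of Thra, which had no site, 73.6% for exon 5, 68.9% for exon 6, 73.5% for exon 7 and 80.3% for exon 8. The longest identical stretch in these pairs was 26 bases, in exon 8 of Thra and exon 9 of Thrb. The first bases of this pair are shown, with the 20 bases that differ in capitals, since the Thra exon held the summit of site 6 and the Thrb exon had no site.
Thra exon 8, chr11:98763529-98763648: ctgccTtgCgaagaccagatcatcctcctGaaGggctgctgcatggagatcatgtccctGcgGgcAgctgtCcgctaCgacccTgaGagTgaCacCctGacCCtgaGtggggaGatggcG
Thrb exon 9, chr14:18030143-18030262: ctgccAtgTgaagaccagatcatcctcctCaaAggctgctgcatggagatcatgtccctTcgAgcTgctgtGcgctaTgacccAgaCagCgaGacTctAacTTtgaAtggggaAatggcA

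Site 7, the strongest of Thra, had no DR4 in its peak. An exact half-site on the minus strand lay at +38 bp from its summit, inside the coding part of exon 9, and formed a DR5 match with 2 mismatches. With up to 2 mismatches, 3.23% of all sites had a DR5 within 100 bp of the summit. Some summits of Thrb also had matches of arrangements other than DR4 under this limit. The window around the summit is shown with this half-site in capitals.
Thra site 7, chr11:98764315-98764435: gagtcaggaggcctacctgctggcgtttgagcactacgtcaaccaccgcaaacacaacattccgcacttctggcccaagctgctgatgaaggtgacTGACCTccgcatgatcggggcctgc

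An exact half-site lay within 100 bp of the summit in 2 of the 8 sites at Thra and 3 of the 11 sites at Thrb, against 17.8% of all sites. GC content was 51.3 to 58.7% in the sites of Thra, above the median of all sites, 49.6%, in each. The median over the sites of Thrb was 44.1%.

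At the 3′ end, Thra and Nr1d1 overlap on opposite strands by 1075 bp. Nr1d1 encodes REV-ERBα, a nuclear receptor that represses transcription in the circadian clock. Site 8 of Thra at chr11:98767027-98768328 had 30 fragments at the summit (fold enrichment 11.5). Its summit lay in intron 9 of Thra-201, the longer transcript, 541 bp before exon 10, the last exon. The peak covered 172 of the 366 coding bases of that exon, which are not part of TRα1, and 397 bp of it lay on Nr1d1. The strongest site of the neighbourhood was just outside the rule, 33356 bp from the 5′ end of Thra and inside Nr1d1, at chr11:98772834-98774585. It had a pileup of 173, a fold enrichment of 64.7, rank 87 of all sites, and a DR4.

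**Figure D3:**
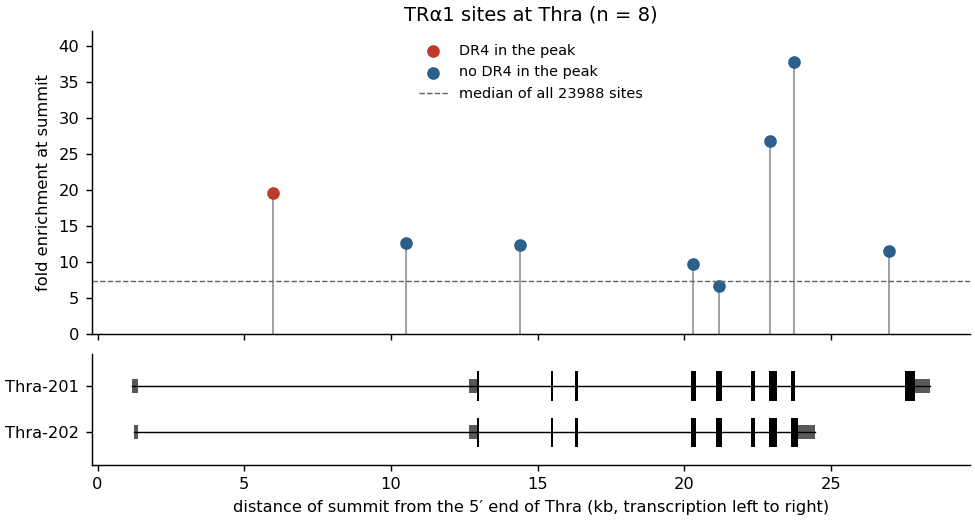
Fold enrichment at the summit (vertical axis) of the 8 TRα1 sites at Thra against the distance from its 5′ end in kb, with a red point for the site with a DR4 and a dashed line at the median of all sites, 7.40. The transcripts Thra-201 and Thra-202 are drawn below to scale, with coding exons as tall boxes. The points over the coding exons range from 6.69 to 37.7, and no point lies at the starts of the drawn transcripts.

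No called site lay over an annotated transcript start of the receptor genes. None of the 9 annotated transcript starts of Thra and none of the 7 of Thrb lay inside a peak. Most of these starts lie close together within their gene. The share of starts inside a peak over all genes was not computed, so these counts are not set against other genes. The start of Thra-202 was 4758 bp from the nearest summit and that of Thrb-201 13705 bp. The nearest of all by summit was the start of Thra-203, at 1451 bp from the summit of site 3. The edge of a peak came closer to it. Thra-203 starts at chr11:98753586, and the peak of site 2 ended shortly before, at chr11:98753482. No call at a start says only that no peak there passed the score of 60.

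The fold enrichment had a median of 12.5 over the 8 sites of Thra (exact 95% interval 6.69 to 37.7). These bounds are the values of its weakest and strongest site. Over the 11 sites of Thrb the median was 8.93 (5.58 to 15.2). Sites of the same gene are not replicates, so these intervals only describe its sites. They do not compare the genes and hold no spread between animals. The median over all sites was 7.40. It was exceeded by 7 of the 8 sites of Thra and 8 of the 11 sites of Thrb, and by 49.9% of all sites. The values for Thra include its coding-exon sites, where the construct and the endogenous gene cannot be told apart.

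**Figure D4:**
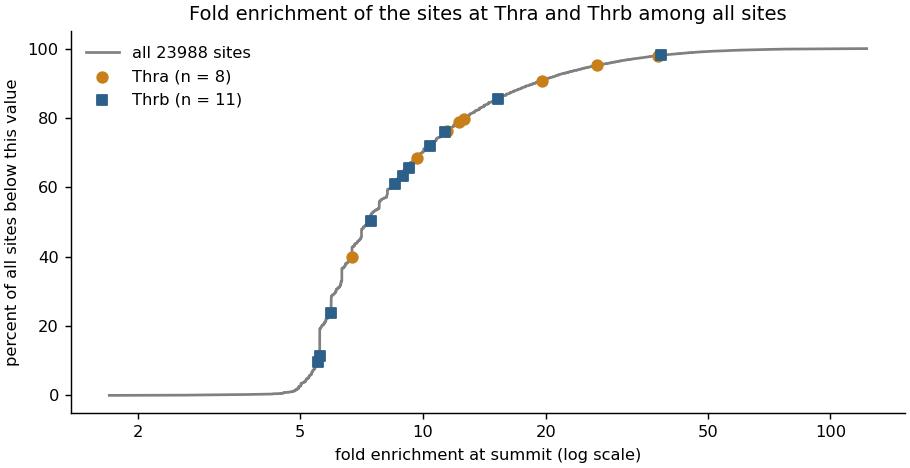
Fold enrichment of the 8 sites at Thra (orange circles) and the 11 at Thrb (blue squares) on a log axis, against the percent of all 23988 sites below that value, with the grey curve for all sites. The strongest site of each gene, 37.7 at Thra and 38.3 at Thrb, lies at the same height of the curve, while the weakest site of Thrb, 5.53, lies above 9.63% of all sites.

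Each receptor gene lies near a REV-ERB gene and, farther away, a retinoic acid receptor gene. Of the 13 sites of Nr1d1, 8 were the 8 sites of Thra, which lie within 30 kb of its 5′ end. Med24 and Msl1, the other protein-coding genes within 30 kb of Thra, had 3 and 8 sites, of which 3 and 1 were sites of Thra. Rara, 158812 bp from Thra, had 5 sites, the strongest with a fold enrichment of 36.1. Near Thrb, Nr1d2, which encodes REV-ERBβ, had 1 site, at chr14:18237640-18239181, with 317 fragments at the summit (fold enrichment 112), which gave rank 4 of the series. Rarb, 841105 bp from Thrb, had 7 sites, with fold enrichments of up to 38.9. Rara, Rarb and Nr1d2 lie too far from Thra and Thrb for a site to be shared under the rule.

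Among 49 nuclear receptor genes, 34 had at least 1 site by the same rule, or 69.4%, against 57.7% of protein-coding genes. Thrb came second by the number of sites and Thra after Rora. The sites counted for Thra include those over coding exons, where the construct and the endogenous gene cannot be told apart. With a score of at least 200, the order of the receptor genes was reversed, with 6 sites at Thra and 4 at Thrb. Nr1d1 came first with 13, and Rora, which encodes a receptor that shares response elements with REV-ERB, had 9. Nr4a1 and Rarb followed with 7 each. Thrb had 5 sites with a DR4, and the next highest counts were 3 at Nr1d1 and 2 at Rora and Rarb. The counts of Nr1d1 and Thra are not separate. Of the 13 sites of Nr1d1, 8 were the sites of Thra, and 1 of its 3 with a DR4 was site 1 of Thra. Apart from Thra, 1 of the 49 genes, Pgr, had a summit in a coding exon, and 3.73% of protein-coding genes had at least 1.

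**Figure D5:**
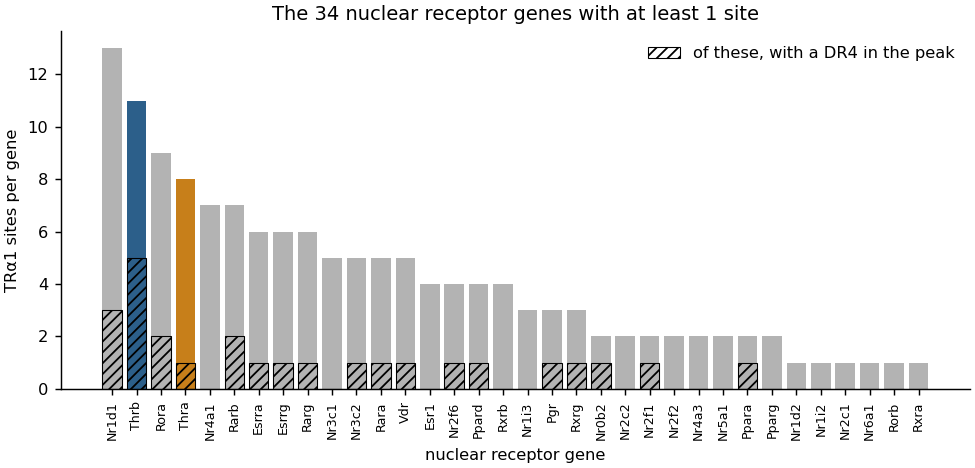
Number of TRα1 sites (bars) in the 34 nuclear receptor genes with at least 1 site, with hatching for the sites that held a DR4 in the peak. Thrb (blue, 11 sites, 5 with a DR4) and Thra (orange, 8 sites, 1 with a DR4) stand directly behind Nr1d1 and directly behind Rora, respectively. The bar of Nr1d1 includes the 8 sites of Thra.

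The other genes of the pathway were examined by role. At least 1 site was found for 19 of 25 genes, or 76.0%, with a median of 2 sites, against 57.7% and a median of 1 over protein-coding genes. A summit in a coding exon was found in 0 of the 25, a count near the 3.73% of protein-coding genes. The RXR partners had sites in 3 of 3 genes, and the strongest, with a fold enrichment of 40.4, was at Rxrb. Corepressors, which bind the receptor without T3, had sites in 6 of 6 genes. Coactivators had sites in 5 of 6 genes, with 7 at Ncoa3 and a highest fold enrichment of 50.03. Among hormone transport and binding genes the count was 4 of 7. Of the deiodinase genes, Dio3, whose product inactivates T3, had 3 sites and 2 of these held a DR4, while Dio1 and Dio2 had 0. Whether these counts differ from those of other genes was not tested.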

How the data were processed

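Sample titles gave the groups, TRα1 ChIP and input. On Galaxy, the authors ran Bowtie against GRCm38 and then MACS, and deposited the peaks that reached a score of 60. The labels name Bowtie2 2.3.2.2 and MACS2 2.1.1.20160309.0. Whether the ChIP libraries were pooled, and how duplicate reads were treated, is not given in the sources used here.

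The deposited pileup is a signal, the coverage of ChIP fragments at the summit. The deposited fold enrichment is its ratio to the local background, with 1 added to each. The deposited score, which is derived from the deposited −log10 q-value, was used as a filter. A −log10 p column and repeats of other columns were not used. The local background was computed from pileup and fold enrichment, and its floor was taken with a tolerance of 0.001 fragments. Depth per library was not analysed here.

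The exon sequences of Thra-202 and Thrb-201 read from the reference equalled those of the annotation, and all peaks lay within its chromosomes. Sites were assigned by summit, with 30 kb on either side of the 5′ end. Motifs were searched on both strands, with up to 2 mismatches for direct repeats of AGGTCA with spacers of 0 to 8 bp (DR4 is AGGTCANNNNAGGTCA), for ER6 and for IR0. The half-site, AP-1 (TGANTCA), a CRE core (TGACG), the GC box, the E-box, the NFI half-site and ETS (CCGGAA) were searched without mismatch, and matches may overlap. Intervals of medians are exact binomial order statistics.

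The members and the lists of genes and motifs were chosen with earlier results of these data known. Named genes were the receptor genes, the nuclear receptor genes beside them, protein-coding genes within 30 kb, genes with as many coding-exon summits as Thra, and up to 5 genes with the most sites of each list. Other pathway genes (Rxrb, Dio1, Dio2 and Dio3) and Pgr were named after their values were seen, and some genes of the lists are not reported here by name. No test was made, since the list gives no value per library. The alternatives were other scores, distances, transcript starts, peak positions and mismatch limits. Python 3.11.15, numpy 2.4.6, pandas 2.3.3, pysam 0.24.0, scipy 1.17.1 and matplotlib 3.10.9 were used, and the functions were tested on simulated data.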

Additional observations from a re-analysis of the deposited data

How the results depend on the processing

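Of 54 alternative values, 43 stayed within 1.5 times the value given, or, for a median, within its interval. Some of them could not move. The interval of the Thra median runs from its weakest to its strongest site. All sites of Thra lie in the gene body, so a flank of 10 kb keeps them. A stricter score cannot lower the count of 0 coding-exon summits at Thrb. With a score of at least 200, the sites of Thrb fell to 4 and those with a DR4 to 2, the coding-exon summits of Thra to 2 (sites 6 and 7 pass) and the pathway genes with a site to 10. The single DR4 count of Thra moved most. It was 3 with a flank of 50 kb, 2 with the start of any transcript, 0 with at most 1 mismatch, 5 with at most 3 mismatches and 0 within 100 bp of the summit. At Thrb, the limit of 1 mismatch gave 2 and that of 3 mismatches 9. The number of sites at Thra ranged from 6 to 12. With a score of at least 200, Thra had 6 sites and thus more than Thrb, the reverse of the order given. No paired analysis was possible because the peak list holds no column for a single library, and for the same reason no library was left out in turn. The depth of the libraries limits which weak sites were called, and was not analysed here.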
